A study of Mus musculus with 6 samples.

Results

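Retinal glia were the 942 cells that the deposited annotation types as glia, of 45746 typed cells and 46375 cells in all, from single-cell RNA sequencing of 6 mouse retinas. The retinas came from male C57BL/6J mice aged 12 months, 3 of them Dram2 wt/wt and 3 Dram2 ko/ko. The ko/ko mice carried a constitutive deletion of exon 4 of Dram2, a lysosomal membrane protein gene linked to autophagy, which was made with CRISPR in C57BL/6J zygotes, so that every cell type lacked the exon and not only the glia. Each retina was digested with papain and loaded on the 10x Genomics 3′ v2 kit. Replicate 3 of each genotype was labelled batch 1 and replicates 1 and 2 were labelled batch 2. The labels do not state what else the batches differ in, nor whether the retinas of 1 genotype came from separate animals, and their protocol text speaks of 1 sample a genotype where 3 are listed, so each n of 3, SD and p-value describes only the spread between these listed retinas.

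Müller cells are the main glia of the retina and span its whole thickness, with endfeet at the inner surface and processes around the photoreceptor segments. They clear glutamate and turn it into glutamine, return retinoids to cones, carry water and potassium to the vitreous and vessels, and take part in gliosis after injury. Astrocytes, the other macroglia of the mouse retina, migrate in along the optic nerve and lie in the nerve fibre layer beside ganglion cell axons and vessels.

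The retinas gave 171, 87 and 269 glia (wt/wt replicates 1, 2 and 3) and 102, 88 and 225 glia (ko/ko replicates 1, 2 and 3), with median depths of 1404 to 1793 UMIs (unique molecular identifiers, 1 per captured transcript) a cell. Glial UMIs on mitochondrial genes were 1.86% (wt/wt) and 1.45% (ko/ko) in batch 1 and 0.222% to 0.389% in the 4 retinas of batch 2. The libraries fell into 3 groups when the summed glial counts of each pair were set side by side in a chi-square, whose value per degree of freedom is near 1 for pure counting noise. Where levels differ the value also grows with depth. The retinas had 145343 to 453224 glial UMIs, so values of unlike pairs are not distances on 1 scale. Wt/wt replicates 1 and 2 and ko/ko replicate 2, all of batch 2, lay at 1.19 to 1.32 from each other, and the batch 1 retinas lay at 1.47 from each other and 6.17 to 7.74 from those 3. Ko/ko replicate 1 stood apart at 3.09 to 4.02 from every other retina, including the 3 that share its batch label. The groups do not show in every gene: Utp14b was at 1867, 1399 and 329 in wt/wt glia against 295, 1548 and 241 in ko/ko glia (in CPM, UMIs per 1000000 glial UMIs), and on this gene ko/ko replicate 1 lay with batch 1. Malat1 was at 166560, 192421 and 54816 in wt/wt glia against 108044, 186290 and 65525 in ko/ko glia (CPM), and its part in the chi-square was not computed. Results that rest on ko/ko replicate 1 are also given without it, because that retina stood apart. The closest pair of 1 genotype, wt/wt replicates 1 and 2, was at 1.29, and each retina was counted as a sample of its own.

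**Figure D1:**
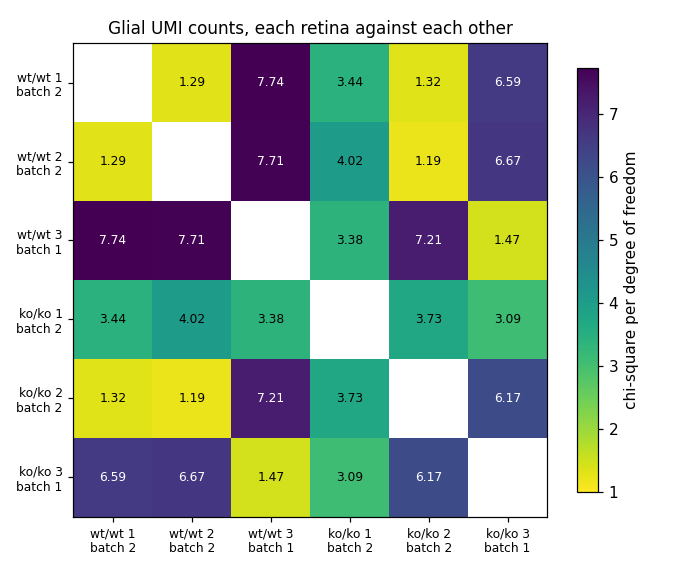
Distance between glial libraries for each pair of the 6 retinas, as the chi-square per degree of freedom of summed glial UMI counts over genes with 20 or more UMIs between them. The 3 close retinas of batch 2 (1.19 to 1.32) and both retinas of batch 1 (1.47) form close groups, and ko/ko replicate 1 is at 3.09 or more from every other retina. Where levels differ the value also grows with the depth of the pair.

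All 5 Müller markers were at a higher mean level in glia than in photoreceptors, interneurons, mesenchymal cells or retinal pigment epithelium (RPE). The typing was made from these counts, so this describes the label and does not test it. Levels are CPM of the summed cells of a type in each retina, counted at the 3′ end once per molecule and not divided by transcript length. Glul (chromosome 1, 153899944 to 153909723, plus strand, GRCm38), the glutamine synthetase that turns glutamate into glutamine, was at 13916, 13372 and 17627 in wt/wt glia against 18021, 14118 and 17863 in ko/ko glia. Its means in the other types were 142 in photoreceptors, 232 in interneurons, 1240.2 in mesenchymal cells and 634 in RPE cells, so every glial value lay above them. Rlbp1 (chromosome 7, 79374870 to 79387048, minus strand), the retinaldehyde-binding protein CRALBP, was at 4269, 3895 and 5377 in wt/wt glia against 4584, 3969.9 and 5493 in ko/ko glia. It is shared with RPE cells, where its mean was 2490.3. Dkk3 (chromosome 7, 112116017 to 112159057, minus strand), a secreted protein of the Dickkopf family, was at 3391, 2630.3 and 3327 in wt/wt glia against 2560.0, 2442 and 3052 in ko/ko glia. Slc1a3 (chromosome 15, 8634124 to 8710764, minus strand), the glutamate transporter GLAST, was at 1321, 1352 and 1152 in wt/wt glia against 844, 1211 and 1193 in ko/ko glia. Aqp4 (chromosome 18, 15389496 to 15410982, minus strand), the water channel of the endfeet, was at 722, 783 and 777 in wt/wt glia against 690.3, 894 and 893 in ko/ko glia. Together the 5 markers took 2.20% to 2.85% of the glial UMIs of a retina, against 0.0134% to 0.0358% in photoreceptors and 0.293% to 0.346% in RPE cells.

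Single cells showed the same markers. A UMI of Glul was found in 97.8% of glia and 6.56% of photoreceptors, one of Rlbp1 in 93.8% and 2.41%, one of Dkk3 in 91.8% and 1.26%, one of Slc1a3 in 75.5% and 0.279%, and one of Aqp4 in 60.8% and 0.182%. Glia were deeper (median 1683 UMIs) than photoreceptors (median 428 UMIs), so cells were also thinned to 500 UMIs, which left out 87 glia. Of 42359 photoreceptors 16670 were deep enough, and 5000 of these were drawn. Slc1a3 was then in 43.3% of glia and 0.260% of photoreceptors, and Aqp4 in 30.6% and 0.260%, so both stayed far above the photoreceptor share at equal depth.

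Dram2 (chromosome 3, 106547798 to 106575890, plus strand) was at 30.6, 33.5 and 61.8 in wt/wt glia against 26.8, 20.6 and 58.4 in ko/ko glia, or 71 UMIs over all glia. These counts come from the 3′ end of the transcript, outside the deleted exon, so they check no genotype, and the gene was too low to enter the test between genotypes. Its mean of 38.6 in glia lay between the 37.7 of photoreceptors and the 84.6 of mesenchymal cells. A UMI of Dram2 was found in 7.01% of glia and 1.89% of photoreceptors, and in 1.99% and 1.68% after thinning.

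Slc1a3, Spc25 and Col9a1 were the leading genes of glia by ratio to the other types. Of 1800 genes at 100 CPM or more in glia, 629 had their highest mean in glia, 261 were more than 2 times the next type and 55 more than 10 times, with 10 CPM added to both levels. The ratios are a description with no test, because the typing was made from these counts. The other types included only 246 mesenchymal and 116 RPE cells, so low means there rest on few UMIs. The order of close ratios is therefore not resolved. After Slc1a3 (ratio 46.7), the next was Spc25 (chromosome 2, 69193895 to 69206194, minus strand), known as a kinetochore subunit of dividing cells, at 2077, 1526 and 3363 in wt/wt glia against 1964, 1562 and 3545 in ko/ko glia, with a ratio of 45.3. Both batch 1 retinas were above all batch 2 retinas for Spc25. It was followed by Col9a1, a collagen IX chain (621 ± 165 CPM, SD, n = 6; ratio 37.5), Espn, the actin-bundling espin (1112 ± 192; 37.4), Aqp4 (793 ± 85.2; 32.6), the lipid transporter family member Abca8a (867 ± 271; 31.8) and Il33, an alarmin cytokine (538 ± 101; 31.5). Shisal2b (589 ± 97.4; 31.1), Dkk3 (2901 ± 411; 29.9), the G protein-coupled receptor gene Gpr37 (1534 ± 230.5; 29.7), the mitochondrial carrier Sfxn5 (896 ± 177; 28.3) and Mlc1, a membrane protein of astroglial junctions (908 ± 139; 27.6), came next. The other leading genes had ratios from 20.3 to 24.7 and were Slitrk2, Crym (a thyroid hormone-binding crystallin), Fxyd6 (a modulator of the sodium pump), Acsl3 (an acyl-CoA synthetase), Hes5, Efemp1 (fibulin-3), Gpld1 and Sox2. Ratios of low genes depend on the amount added: with 50 CPM, 16 of the 20 genes remained, Spc25 led, and Fxyd1, Glul, Prss56 and Utp14b came in.

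**Figure D2:**
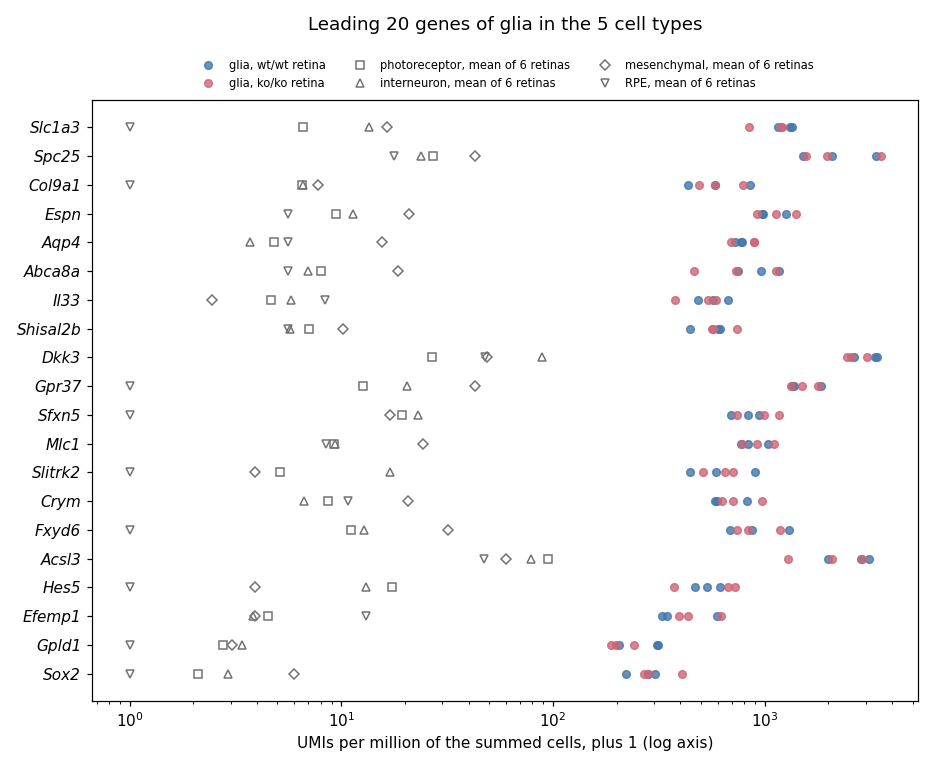
Levels of the 20 leading genes of glia as CPM plus 1 on a log axis, with 1 circle per retina for glia (blue wt/wt, red ko/ko) and the mean over retinas for each of the other 4 cell types. In every row the 6 glial circles lie together and to the right of all other types, from Slc1a3 with a ratio of 46.7 to Sox2 with a ratio of 20.3.

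The genes of transmitter recycling were highest in glia, and those of retinoid handling mostly in RPE cells. All 6 transmitter genes at 100 CPM or more had their highest mean in glia, and 3 of them were over 2 times the next type. Besides Glul and Slc1a3 these were the GABA transporter Slc6a11 (308 ± 75.3 CPM; 50.3 in interneurons), the glutamine exporter Slc38a3 (428 ± 105; 282 in interneurons), glutamate dehydrogenase Glud1 (131 ± 22.5; 129 in mesenchymal cells) and GABA transaminase Abat (121 ± 25.2; 87.6 in RPE cells). The remaining member, the GABA transporter Slc6a13, had 1 UMI in all glia and 274 CPM in RPE cells. Of the 3 retinoid genes past 100 CPM only Rlbp1 was highest in glia. The retinol dehydrogenase Rdh10 was at 254 ± 55.3 CPM in glia and 1518 in RPE cells, and the retinal G protein-coupled receptor gene Rgr, under 100 CPM in glia, at 56.2 ± 19.4 and 12459.

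Of 10 genes for water, potassium and pH, 8 were at 100 CPM or more in glia, and 4 had both their highest mean there and a ratio above 2. These were Aqp4, the inward rectifier Kcnj10 (Kir4.1; 107 ± 45.4 CPM, ratio 9.55), the carbonic anhydrase Car2 (3160.4 ± 259; 2.54) and the sodium pump subunit Atp1b3 (372 ± 84.5; 2.96). The membrane-bound carbonic anhydrase Car14 (1432 ± 59.8) was higher in RPE cells (1928), and the pump subunit Atp1b2 (674 ± 139) was higher in interneurons (892). The bicarbonate cotransporter Slc4a4 had 3 UMIs in all glia.

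Secreted proteins and lipid carriers gave some of the highest counts in glia but were mostly shared with other types. Of 11 listed, 10 were past 100 CPM, 6 had their highest mean in glia and 2, Dkk3 and the Wnt antagonist Frzb (309 ± 96.7 CPM, ratio 18.0), were over 2 times the next type. Apoe, the apolipoprotein of brain and retinal glia, was at 18151, 18579.5 and 20692 in wt/wt glia against 21814, 16629.6 and 22628 in ko/ko glia, and its RPE mean was 11258. The chaperone clusterin, Clu, was at 9188 ± 778 CPM in glia and 10082 in RPE cells, and the protease inhibitor cystatin C, Cst3, at 2171 ± 595 in glia, 16159 in mesenchymal cells and 27676 in RPE cells. Of the glial UMIs of Cst3, 50.7% were in 18 astrocyte-like cells, and the other 924 glia were at 1027 CPM. Sparc (1456 ± 99.4), a matrix-associated protein, was close to its mesenchymal mean (1260.4).

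Most transcription factors and Notch targets were highest in glia. Of 17, 15 were past 100 CPM, 13 had their highest mean in glia and 9 had a ratio above 2. Sox8 (276 ± 25.7 CPM; ratio 18.5), Sox2 (293 ± 61.5; 20.3) and the Notch effector Hes5 (563 ± 132; 21.7) had the highest ratios. Hes1 (1299.7 ± 333; 4.69), Pax6 (1113 ± 118; 4.37), Lhx2 (237 ± 38.1; 3.74), Id2 (219 ± 76.2; 2.27), Rax (728 ± 201; 2.19) and Sox9 (283 ± 12.8; 2.06) were lower in ratio.

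Genes of gliosis were mostly low. Of 21, 4 were past 100 CPM: the copper oxidase ceruloplasmin Cp (828 ± 140.4 CPM; ratio 5.97), the transcription factor Cebpd (235 ± 78.0; 2.69), the small heat shock protein Cryab (709 ± 183; 1059 in RPE cells) and the intermediate filament Vim (589 ± 107; 671 in mesenchymal cells). Gfap, the filament that reactive Müller cells and astrocytes make, was at 38.2, 93.7 and 19.9 in wt/wt glia against 46.9, 34.4 and 15.2 in ko/ko glia, from 51 UMIs in all. Lcn2 had 8 UMIs in all glia, Nes 6, Timp1 1 and Ccl2 none, which allows Ccl2 up to 6.62 to 20.6 CPM in a retina by the 3 counts that a count of 0 allows.

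The remaining lists gave few genes that glia led. Of 20 interferon response genes 6 were past 100 CPM and 2 had their highest mean in glia, of 20 dissociation response genes 4 and 0, of 12 metal and redox genes 8 and 2, of 16 glycolysis genes 11 and 2, and of 25 lysosome and autophagy genes 15 and 3. In ratio, the peroxidase Prdx6 (1495 ± 346 CPM; 2.76), the glutathione transferase Gstm1 (214 ± 55.4; 2.12) and the enolase Eno1 (800.1 ± 229; 3.55) were the only members of these 5 lists above 2. Aldoa (1535 ± 393) had the highest count among the glycolysis genes, and Laptm4a (1032 ± 259), a lysosomal membrane protein, among the lysosome genes. Of 9 genes that mark the dorsal or ventral retina, only the dorsal retinaldehyde dehydrogenase Aldh1a1 was past 100 CPM (110.1 ± 45.0; ratio 7.54), and the ventral Aldh1a3 and the dorsal Bmp4 had no UMI.

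RNA of other cell types was present in glia, led by rod RNA. All 15 rod markers were found, and the list took 0.788%, 0.922% and 1.66% of wt/wt glial UMIs and 1.77%, 1.05% and 1.74% of ko/ko ones. It took 1.21% to 1.74% in interneurons and 0.736% to 1.62% in RPE cells, so glia were near the other types, and 8.20% to 12.6% in photoreceptors. Other markers were lower: the highest bipolar marker in glia was Pcp2 (63.1 CPM) and the highest amacrine marker Snhg11 (34.9), with 5 of 8 and 6 of 8 genes of these lists under 10 CPM, as were 8 of 9 microglia markers. Of 7 ganglion cell markers, 3 were at 0 and only Thy1 (108) was above 10, and Thy1 had its highest mean in glia. Of 5 oligodendrocyte markers none passed 10 CPM and 2 were at 0.

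Of 7 endothelial markers, 2 were past 100 CPM in glia and 5 were under 10. The VEGF receptor gene Kdr was at 424, 395 and 404 in wt/wt glia against 275, 523 and 381 in ko/ko glia, and the VEGF receptor gene Flt1 at 527, 542 and 391 in wt/wt glia against 322, 509 and 386 in ko/ko glia. The junction gene Cldn5 was at 7.22, Pecam1 at 2.69, Egfl7 at 8.42, Ly6c1 at 2.75, and Cdh5 had no UMI in the glia of any retina. Kdr was higher in glia than in mesenchymal cells (138), and Flt1 was lower in glia than there (1314). The class typed as mesenchymal carried markers of several cell types. By retina, microglia markers took 0.521% to 2.58% of its UMIs, endothelial markers 0.491% to 1.21% and pericyte markers 0.275% to 0.731%. Each mesenchymal level given here is therefore a mean over a mixed class. A UMI of Kdr was found in 40.6% of glia and 0.172% of photoreceptors, and of Flt1 in 44.4% and 0.229%. After thinning to 500 UMIs the shares were 18.4% and 0.200% for Kdr and 19.1% and 0.260% for Flt1.

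Clustering of glia alone, with each gene centred within each retina, gave 5 sub-clusters, of which both large ones held Müller markers alike. The large ones had 414 cells (43.9%) and 415 cells (44.1%), with 2.73% and 2.75% of UMIs on the 5 Müller markers. The former had Cxcl10 (ratio 3.23 to the rest of glia), Rsad2, Ifit1, Gm37534, Gli3, 1700030K09Rik, Pml, Fer and Gm42576 among its 10 leading genes, and spent 0.229% of UMIs on the interferon list. The latter was led by Gm45713 (3.32), Rpl13a, Gm11478, Eif4ebp2, Serpina3n, Rab20, Sipa1, Cemip2, Utp15 and Twnk, and spent 0.169%. These ratios are low and many of the genes rest on few UMIs, but Gm45713, Rpl13a and Gm11478 rest on 659, 675 and 475. The 829 cells were treated as 1 population for the spread between cells, although a higher resolution split them further.

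The small sub-clusters had genes of other cells, mitochondrial genes or astrocyte markers among their leading genes. One of 60 cells (6.37%; 9, 6 and 12 in the wt/wt and 9, 5 and 19 in the ko/ko retinas) was led by Snhg11 (11.3), Cabp1, Lamp5, Kcnc1, Slc6a9, Tma7-ps, Cnga1, Cartpt, Ebf1 and Gngt1, which include markers of amacrine cells and rods. Its cells had a median of 2191.5 UMIs and spent 4.59% of them on the rod list and 1.97% on the Müller markers, and doublets were not removed here, so it was left unnamed. Another of 35 cells had a median of 405 UMIs, 16.7% mitochondrial UMIs and Gm2189 (15.2), mt-Co3, Gm29216, Gm10925, mt-Co1, mt-Rnr1, mt-Atp6, mt-Nd4, Gm28437 and Gm13339 as its leading genes, and was left unnamed too. The last, of 18 cells, was led by Igfbp5 (158), followed by the astrocyte marker Gfap (108), with the astrocyte markers Pdgfra and S100b also among its leading genes. At a higher resolution glia split into 11 sub-clusters with the same 18 cells as one of them, and without centring within retinas the largest sub-cluster of 385 cells was 91.7% batch 1. The higher resolution also split the large sub-clusters. A group of 101 of their cells was led by Pam (5.29; 136 UMIs), with Spry2 (174 UMIs) and Notch2 (223 UMIs) among its leading genes. Another of 38 cells was led by Prss56 (8.83; 319 UMIs).

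Within the 829 cells most genes varied about as counting alone would give, and a few varied far more. The variance of each gene between cells was divided by its counting expectation, given the depth of each cell and the level of its retina, for 2644 genes with at least 100 UMIs. The median of this measure was 1.02 and the 90th percentile 1.15, and 30 genes exceeded 2. Malat1, a nuclear long non-coding RNA, was highest at 91.9, and among coding genes Prss56 at 10.9, Ifit3 at 8.48, Ifit3b at 5.80, Actb at 4.88, Apoe at 4.55, Cebpd at 3.80, Hes5 at 3.76 and Cyp26a1 at 3.40. For Cebpd 1 cell held 28 of the 310 UMIs and 14 cells had 3 or more, so its value rests on few cells. Glul, found in nearly all glia, was at 3.28 and Rlbp1 at 2.07. The measure and the genes named from it were chosen after their values were seen.

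**Figure D3:**
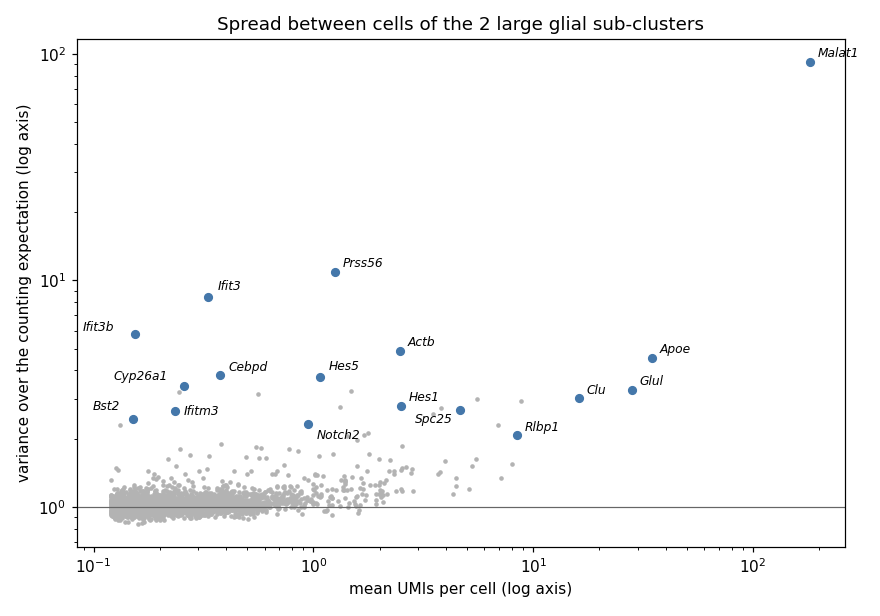
Spread of 2644 genes between the 829 cells of the 2 large glial sub-clusters, with the mean UMIs per cell on the horizontal log axis and the variance divided by its counting expectation on the vertical log axis. Most genes lie at the line of 1 (median 1.02), and Malat1 (91.9), Prss56 (10.9) and Ifit3 (8.48) lie far above it.

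Prss56 (chromosome 1, 87183313 to 87188405, plus strand), a serine protease gene in which variants alter eye size, was concentrated in a minority of cells. Of the 829 cells 598 had no UMI of it, 101 had 3 or more, 29 had 10 or more and 1 cell had 45. The 83 cells with most of it held 79.3% of its UMIs. Cells with 3 or more were 17.9%, 21.3% and 10.4% of wt/wt and 6.74%, 18.9% and 6.15% of ko/ko cells by retina, so the genotypes overlapped. Summed over all glia, Prss56 was at 947, 1131 and 492 in wt/wt glia against 422, 1631 and 365 in ko/ko glia (CPM), and log2 ko/ko minus wt/wt was -0.12 (SE 0.54). The direction of this difference turned with single retinas: leaving out ko/ko replicate 2 gave -1.23, and leaving out ko/ko replicate 1 gave 0.22. A UMI of Prss56 was found in 26.2% of all glia (95% Wilson interval 23.5% to 29.1%, which covers counting error only) and 0.267% of photoreceptors, and after thinning in 16.4% and 0.140%.

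Hes5, the Notch effector, and Cyp26a1, which degrades retinoic acid, also varied between cells. Hes5 was found in 40.2% of glia and 0.814% of photoreceptors, and 17, 10 and 30 cells in the wt/wt and 15, 7 and 31 in the ko/ko retinas had 3 or more UMIs. Cyp26a1 was found in 9.24% of glia and 0.0708% of photoreceptors, and its top 83 cells held 98.6% of its UMIs, with 3 or more in 2, 3 and 12 wt/wt and 5, 5 and 6 ko/ko cells. Cells of both genotypes and of all 6 retinas were thus among the high ones. The dorsal genes Aldh1a1 and Tbx5 met in 12 of the 20 cells with a UMI of Tbx5, where 138 of the 829 had one of Aldh1a1. Aldh1a1 met the ventral factor Vax2 in 6 of the 59 cells with a UMI of Vax2.

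A minority of these cells carried several interferon response genes. These genes are switched on through interferon receptors as part of antiviral defence. Over the 829 cells, scaled for depth and retina, the genes whose counts went most with Ifit3 included Ifit3b (Pearson r = 0.57), B2m (0.38), Bst2 (0.37), Ifitm3 (0.36), Cebpd (0.28), Ifi35 (0.17) and Tap2 (0.15). The values of Ifi35 and Tap2 were below those of the closest gene to Glul (Aqp4, 0.19) and to Spc25 (Rlbp1, 0.23), so they do not stand out. Ifit3 and its close copy Ifit3b can share reads, so the value of that pair is uncertain. The cells share 6 libraries, and the values are a description. Of the 829 cells 4 had 10 or more UMIs of Ifit3 and 1 had 10 or more of Cebpd, so the values can rest on few cells. Cells with 3 or more UMIs of Ifit3 numbered 4, 2 and 2 in the wt/wt and 1, 4 and 5 in the ko/ko retinas. Ifit3 was found in 15.2% of glia and 0.0850% of photoreceptors, and after thinning in 5.85% and 0.0800%. Prss56 did not go with it (r = -0.02).

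The promoters of these genes were searched for 2 copies of the letters GAAA set 2 bases apart, on either strand (TTTC on the other), the core of the element that interferon-activated factors are known to bind, within 250 bases before and 50 after the start. RefSeq promoters (GRCm38.p6) were matched for 6 genes, Ifit3, Ifit3b, B2m, Bst2, Ifitm3 and Ifi35. Cebpd and Tap2 had no entry. The letters were in 5 of the 6, all but Ifi35, against 1131 of 32851 promoters of all genes (3.44%). The stretches before the start are shown because the counts of these genes went together from cell to cell, with the match in capitals (both copies and the bases between) and 5′ to 3′ along the gene's strand. A match describes the sequence and is not a bound site.
Ifit3, chr19:34583353-34583402, plus strand, match 156 to 147 bases before the start: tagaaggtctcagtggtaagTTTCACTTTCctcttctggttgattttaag
Ifit3, chr19:34583387-34583436, plus strand, match 122 to 113 bases before the start: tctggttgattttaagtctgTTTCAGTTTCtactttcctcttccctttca
B2m, chr2:122147528-122147577, plus strand, match 139 to 130 bases before the start: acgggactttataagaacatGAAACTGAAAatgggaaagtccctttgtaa
Bst2, chr8:71537573-71537622, minus strand, match 130 to 121 bases before the start: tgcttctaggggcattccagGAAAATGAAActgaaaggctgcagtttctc
Bst2, chr8:71537567-71537616, minus strand, match 124 to 115 bases before the start: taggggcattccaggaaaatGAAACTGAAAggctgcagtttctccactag
Ifit3b held the same pair of 50-base stretches as Ifit3, at chr19:34607749-34607798 and chr19:34607783-34607832 on the plus strand. The match of Ifitm3 lay past the start.

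The interferon list varied between replicates. It took 0.181%, 0.290% and 0.137% of wt/wt glial UMIs and 0.165%, 0.323% and 0.185% of ko/ko ones, so replicate 2 was highest in both. Photoreceptors spent 0.0165% to 0.0217% on it and mesenchymal cells 0.693% to 0.975%. Ifit3 was at 168, 261 and 86.1 in wt/wt glia against 114, 564 and 213 in ko/ko glia (CPM), with log2 ko/ko minus wt/wt of 0.80 (SE 0.55), and the groups overlapped. Leaving out ko/ko replicate 2 took the difference of Ifit3 to -0.04 and leaving out wt/wt replicate 3 took it to 0.37, while it was 1.20 without ko/ko replicate 1.

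A second set of genes went with Notch2, a Notch receptor. Over the same 829 cells these were Actb (r = 0.55), Sfxn5 (0.44), the receptor signalling inhibitor Spry2 (0.43), podoplanin Pdpn (0.42), Nfia (0.39), Abhd2 (0.38), Ccdc85c (0.37) and the adhesion molecule Ncam1 (0.35). Hes5 did not go with Notch2 (r = -0.03), nor did Ifit3 (r = -0.01). Notch2 was found in 40.3% of glia and 0.283% of photoreceptors, and 24, 13 and 23 wt/wt and 19, 12 and 17 ko/ko cells had 3 or more UMIs.

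Cells with astrocyte markers were a small part of the glia. The sub-cluster of 18 cells had 29986 UMIs in all (median 1532 a cell, against 1691.5 in the other 924 glia). These cells held 45 of the 51 glial UMIs of Gfap (88.2%), in 16 of the 18 cells. They also held 28 of 29 UMIs of the growth factor receptor Pdgfra, 107 of 182 of the calcium-binding S100b and both UMIs of Pax2, the transcription factor of optic nerve astrocytes. Gfap was at 1501 CPM in them (95% Poisson interval 1095 to 2008, counting error only) and 3.94 in the other glia, Pdgfra at 934 and 0.657, and S100b at 3568 and 49.2. Gfap, Pdgfra and S100b were among their 10 leading genes, and the cells are called astrocyte-like. Of the other markers, Gja1, Fabp7, Agt and Aldh1l1 had 1 UMI each, or 33.3 CPM (95% Poisson interval 0.844 to 186), which covers the levels of Agt (98.5) and Aldh1l1 (71.6) in the other glia.

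The 18 cells also stood apart from the other glia in Müller genes. Beside the markers they were led by the growth factor binding protein Igfbp5 (2401 and 5.25 CPM), Rgs5 (21 of 21 UMIs; also a pericyte marker), Cldn10 (22 of 25), the neurotrophin receptor Ntrk2 (22 of 25), Cnmd (21 of 26) and 1500015O10Rik (26 of 29). Of the other pericyte markers, Vtn was at 400.2 CPM in them and 272 in the other glia, and the growth factor receptor Pdgfrb had 0 UMIs in them and was at 127 CPM in the other glia. They held 1608 of 3173 glial UMIs of cystatin C (50.7%), at 53625 and 1027 CPM. Glul (4902 and 16587), Rlbp1 (1567 and 4934), Dkk3 (900.4 and 3087) and Pax6 (200.1 and 1165) were lower in them, while Slc1a3 (967 and 1190.3), Mlc1 (1367 and 921), Vim (767 and 597) and Sox9 (400.2 and 280.3) were found in both. Aqp4, Spc25, Gpr37, Hes5, Crym, Il33, Prss56 and Flt1 had no UMI in the 18 cells, which allows each up to 100 CPM by 3 counts of 29986, where the other glia were at 439.9 (Flt1) to 2766 (Spc25). The cells were clustered on these counts, so the values are a description with no test.

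**Figure D4:**
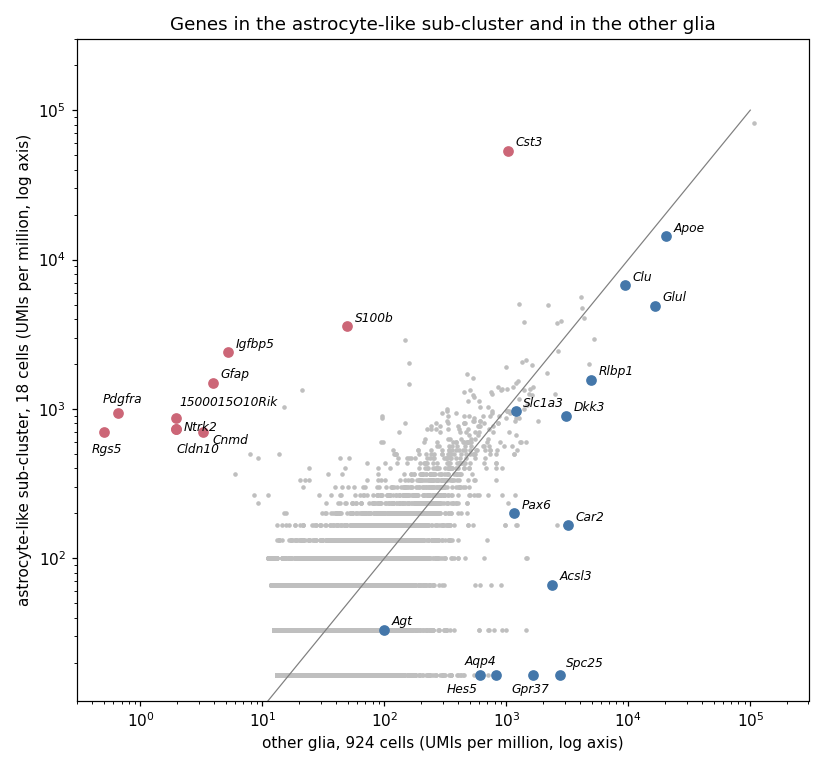
Levels of genes in the 18 astrocyte-like cells (vertical log axis) against the other 924 glia (horizontal log axis), in CPM, with the diagonal marking equal levels and genes without a UMI drawn below the level of 1 UMI; named genes are red where higher in the 18 cells and blue where lower, and the other genes are grey. Gfap (1501 and 3.94), Pdgfra and S100b lie far above the diagonal, Glul and Rlbp1 lie below it, and Aqp4, Spc25, Gpr37 and Hes5 have no UMI in the 18 cells.

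The share of astrocyte-like cells did not differ detectably between the genotypes. They numbered 3, 4 and 3 cells in the wt/wt and 2, 4 and 2 in the ko/ko retinas, which is 1.75%, 4.60% and 1.12% against 1.96%, 4.55% and 0.889% of glia. The means were 2.49% ± 1.85 and 2.47% ± 1.88 (SD, n = 3 each), a difference of -0.0241 percentage points (two-sided exact permutation p = 0.9, where 3 against 3 cannot go below 0.1), and without ko/ko replicate 1 it was 0.228 points. Replicate 2 was highest in both genotypes. When cells were instead called by at least 2 UMIs of Pax2, Pdgfra, Gja1 and Agt together, 26 cells were taken, of which 9 were among the 18 and the other 17 had UMIs of Agt only.

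Glia as a share of typed cells were 2.27%, 1.18% and 3.90% in the wt/wt and 1.47%, 1.11% and 2.47% in the ko/ko retinas, and the groups overlapped. The difference of -0.768 percentage points (exact permutation p = 0.6) was -1.43 within batch 1 (1 retina each), -0.437 within batch 2, -0.663 without ko/ko replicate 1 and -0.0446 without wt/wt replicate 3.

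Between genotypes no gene passed an adjusted p of 0.05 in glia. Glial counts were summed for each retina and fitted in edgeR, and 0 of 4130 genes tested were called (0.0%), with 0 called by limma-voom and by DESeq2 too. At an unadjusted p under 0.05 there were 51 genes by edgeR (1.23%), 19 higher (0.46%) and 32 lower (0.775%) in ko/ko, 69 by limma-voom and 15 by DESeq2. Without ko/ko replicate 1 the counts were 0 called and 58 of 5771 genes. In simulated retinas of these libraries' depths, 3 a genotype, edgeR called 95.1% of genes changed by 2 on the log2 scale and 17.3% of those changed by 1. It also called 8 and 4 unchanged genes. The simulated retinas shared a common mean per gene and differed by independent spread only, with no shared batch shift. A change of 1 was mostly missed there, so it could be missed in these data too. The 12 genes with the smallest unadjusted p, 6 in each direction, are given by value. Their adjusted p was 0.9998 in each case (edgeR, Benjamini-Hochberg over 4130 genes), and no direction is called for any of them, nor for any other gene whose difference is given with its SE.

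Dapk3, a death-associated protein kinase, was at 26.7, 33.5 and 35.3 in wt/wt glia against 107, 61.9 and 78.7 in ko/ko glia (CPM), a log2 difference (ko/ko minus wt/wt) of 1.31 (SE 0.37), and of 1.15 without ko/ko replicate 1. Nfu1, an iron-sulphur cluster assembly factor of mitochondria, was at 34.4, 33.5 and 48.5 in wt/wt glia against 73.7, 68.8 and 93.9 in ko/ko glia, a difference of 0.96 (SE 0.34). Cct8, a chaperonin subunit, was at 49.6, 60.2 and 128 in wt/wt glia against 147, 151 and 157 in ko/ko glia, a difference of 0.84 (SE 0.33), and of 1.38 without wt/wt replicate 3. Ko/ko values of these 3 genes lay above all wt/wt values. The other 3 genes with higher ko/ko values were the kinases Taok3 (1.05) and Csnk1d (0.87), and Unc119 (0.61), a photoreceptor-enriched trafficking protein. Unc119 was at 435, 475 and 437 in wt/wt glia against 938, 571 and 624 in ko/ko glia, highest in ko/ko replicate 1, and its difference was 0.40 without that retina.

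Ide, the insulin-degrading enzyme, was at 129.8, 154 and 106 in wt/wt glia against 46.9, 48.2 and 76.1 in ko/ko glia (CPM), a log2 difference of -1.13 (SE 0.33), and of -0.98 without ko/ko replicate 1. Creb3l2, a transcription factor of the endoplasmic reticulum membrane, was at 267, 241 and 189.8 in wt/wt glia against 114, 151 and 124 in ko/ko glia, a difference of -0.89 (SE 0.29). Ptpn12, a tyrosine phosphatase, was at 99.3, 93.7 and 57.4 in wt/wt glia against 33.5, 55.0 and 22.8 in ko/ko glia, a difference of -1.30 (SE 0.47), and of -0.87 without ko/ko replicate 3. Ko/ko values of these 3 genes lay below all wt/wt values. The remaining 3 were the respiratory chain subunit Cox7c (-0.80), the sestrin Sesn3 (-0.80), a stress-responsive regulator of mTORC1, and the RNA helicase Ddx17 (-0.76). Without ko/ko replicate 1 the differences were -0.65 for Cox7c, -0.65 for Sesn3 and -0.69 for Ddx17. The groups of all 12 genes did not overlap, as for 150 genes with higher ko/ko values (3.63% of those tested) and 93 with lower ones (2.25%). 

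**Figure D5:**
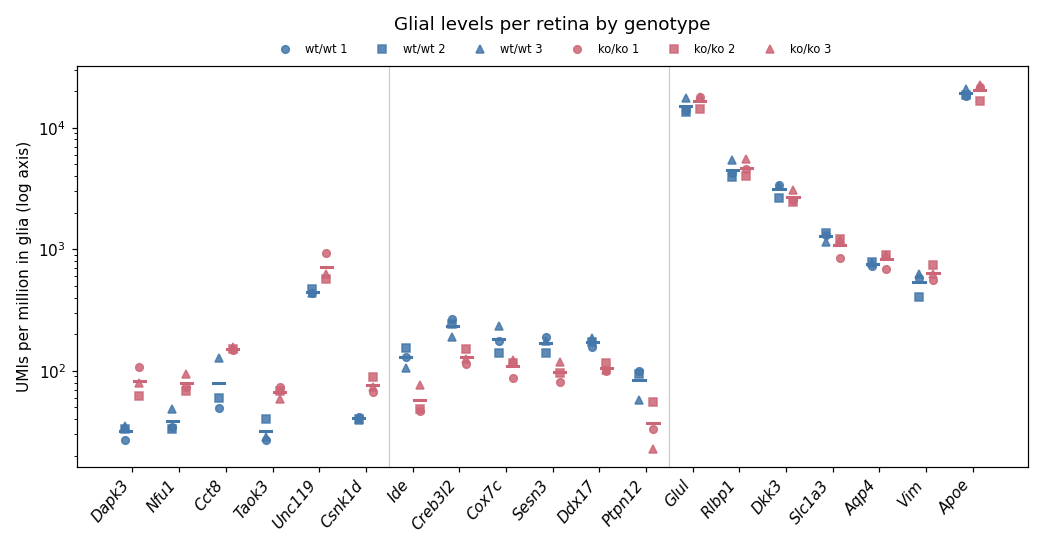
Glial levels of 19 genes in each retina, in CPM on a log axis, with blue wt/wt and red ko/ko points and bars at the group means. The 6 genes with the smallest p in each direction have separate groups, such as Dapk3 and Ide, while Glul, Rlbp1, Dkk3, Slc1a3, Aqp4, Vim and Apoe have overlapping groups.

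No Müller marker and no member of the gene lists was called between genotypes. The log2 differences were 0.11 (SE 0.16) for Glul, 0.01 (SE 0.18) for Rlbp1, -0.26 (SE 0.19) for Dkk3, -0.29 (SE 0.24) for Slc1a3 and 0.08 (SE 0.22) for Aqp4. Slc1a3 was lowest in ko/ko replicate 1, and without it the difference was -0.10. Glul was at 0.19 without ko/ko replicate 2. Vim was at 0.22, at 0.06 without ko/ko replicate 2 and at 0.33 without ko/ko replicate 1, and Apoe was at 0.04. The 20 leading genes had a median of -0.02 (from -0.45 to 0.20) and the 261 genes with a ratio above 2 one of -0.04, beside a median of -0.02 over all 4130 genes. Of the 261 genes, 0 were higher and 5 lower at an unadjusted p under 0.05, where 0.46% and 0.775% of all genes tested were. Medians of the lists were -0.11 for transmitter recycling (6 tested), -0.20 for retinoid handling (5), -0.15 for water, potassium and pH (9), -0.02 for secreted proteins (10), -0.06 for transcription factors (17), 0.13 for gliosis (6), 0.08 for interferon response (9), -0.13 for dissociation response (7), -0.04 for metal and redox (10), 0.18 for glycolysis (14) and -0.01 for lysosome and autophagy (18). Single members ranged from -0.69 to 0.80 in the interferon list, -0.72 to 0.35 among transcription factors and -0.20 to 0.84 in glycolysis. None of these members had an unadjusted p under 0.05. Of the gliosis genes Cebpd was at 168, 187 and 194 in wt/wt glia against 268, 378 and 216 in ko/ko glia, a difference of 0.60 (SE 0.29), not called, and of 0.31 without ko/ko replicate 2, and its groups did not overlap. Groups with higher ko/ko values did not overlap for 2 of 6 gliosis, 1 of 9 interferon and 1 of 10 secreted protein genes (3.63% of all genes tested). With lower ko/ko values this held for 1 of 9 genes for water, potassium and pH and 1 of 7 dissociation genes (2.25% of all genes tested). Cebpd was also among the genes that went with Ifit3 from cell to cell, where 14 of the 829 cells had 3 or more UMIs of it.

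Rod RNA in glia differed between retinas. The 15 rod markers in glia had a median log2 difference of 0.34, and Gngt1, a subunit of rod transducin, was at 817, 991 and 1218 in wt/wt glia against 2473, 1080.2 and 1365 in ko/ko glia (CPM), a difference of 0.65 (SE 0.29), not called. Without ko/ko replicate 1 the difference of Gngt1 was 0.27 and the rod median 0.30. Ko/ko replicate 1 was the highest retina for Gngt1, and wt/wt replicates 1 and 2 had the lowest rod shares. Without the 10% of glia highest in rod share, 0 of 3899 genes were called by edgeR and 40 had an unadjusted p under 0.05, and the log2 difference was 1.28 for Dapk3, 0.47 for Unc119 and -1.17 for Ide. The 5 cone markers tested had a median of -0.51. The whole cone list took 0.0451%, 0.0482% and 0.104% of wt/wt glial UMIs and 0.0583%, 0.0385% and 0.0581% of ko/ko ones. Wt/wt replicate 3 was thus the highest, and the genotypes overlapped.

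Many genes were called in glia between the batches. With genotype as a term, edgeR called 286 of 4130 genes between batch 1 and batch 2 (6.92%), 64 higher (1.55%) and 222 lower (5.38%) in batch 1, a contrast added after the data were seen. All 11 mitochondrial genes tested were higher in batch 1, such as mt-Nd1, a complex I subunit, at 424, 422 and 4927 in wt/wt glia against 657, 523 and 3859 in ko/ko glia (CPM), a log2 difference of 2.94, edgeR adjusted p = 4.6e-10. Hopx, a homeodomain cofactor, was at 53.5, 73.6 and 298 in wt/wt glia against 80.4, 75.7 and 411 in ko/ko glia, a difference of 2.14, edgeR adjusted p = 4.81e-06. Among glial genes Spc25 (0.76, edgeR adjusted p = 0.00682) and Id3 (0.77) were also higher in batch 1, as were the rod genes Pdc (0.83), Pde6g (0.84) and Sag (0.72) and the ganglion cell marker Thy1 (0.94).

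Genes lower in batch 1 included Malat1 (-1.64, edgeR adjusted p = 2.22e-05), Utp14b (-2.34), Pabpc1 (-1.99), the AP-1 factor Jund (-1.63) and Pdcd4 (-1.54). S100b (-1.66, edgeR adjusted p = 0.00159), Ifi27 (-1.09) and Hsp90aa1 (-0.74) were lower as well. None of the 5 Müller markers was called. In the lists the calls were 1 of 17 transcription factors, 2 of 9 interferon genes, 2 of 7 dissociation genes, 1 of 9 genes for water, potassium and pH, 1 of 3 astrocyte markers and 3 of 15 rod markers. What sets the batches apart was not tested. The count rested on single retinas: it was 1068 without ko/ko replicate 1, the retina that stands apart within batch 2, 23 without wt/wt replicate 3, 69 without ko/ko replicate 3, where batch 1 is left with 1 retina that is assumed to vary like the others, and 32, 148 and 54 without wt/wt replicates 1 and 2 and ko/ko replicate 2.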

How the data were processed

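The authors aligned the reads to GRCm38 (mm10) with Cell Ranger 3.1.0, named in the submitters' processing notes, counted UMIs on exonic reads and deposited raw UMI counts of 52636 genes in 46375 cells. The authors' deposited annotation gives sample, genotype, batch and cell type, from Seurat (LogNormalize, CCA integration over batch, Louvain clusters). GENCODE M21 named 52489 genes, and 0 columns of the count table went unused. Cells carry running numbers and no barcodes, so barcodes shared between libraries could not be counted. No doublet caller was run and no cell was removed.

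Glial counts were summed per retina. The genotypes were fitted with edgeR 4.0.16 (glmQLFit and glmQLFTest, TMM factors, filterByExpr, genotype as the only term, Benjamini-Hochberg over all genes tested, threshold 0.05); limma 3.58.1 and DESeq2 1.42.0 were alternatives. The study aggregates per sample and cell type too and uses limma-voom. Batch was fitted with genotype as a second term. Shares were compared by two-sided exact permutation over retinas. CPM leave out TMM factors. Sub-clusters came from scanpy 1.11.5 with igraph 0.11.9 (1000 variable genes, values centred within each retina, 20 principal components, 15 neighbours, leiden resolution 0.5). Intervals and limits from counts cover counting error only.

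Genes named are the 5 Müller markers, the 20 leading genes, members of fixed lists with the highest level or smallest p, the 6 genes with the smallest p in each direction, Dram2, Gfap, Vim and Apoe, and the 10 leading genes of each sub-cluster, a few of which are not reported here. The members and lists were chosen with earlier results of these data known. The batch contrast, the spread between cells and its genes, fits on both large sub-clusters alone, and the promoter search were added after the data were seen. On simulated counts with 200 changed genes, edgeR called 17.3% of 173 genes changed by 1 on the log2 scale (3854 tested) and 95.1% of 164 changed by 2 (3750 tested). Results were also computed with limma-voom and DESeq2, with RLE factors, without the filter on low counts, with batch as a covariate or the replicate number as a block, on a stricter set of 849 glia (500 UMIs or more, mitochondrial share of 10% or less), without the 10% of glia highest in rod share, without the astrocyte-like cells, with other cluster settings and with each retina left out. Other versions were R 4.3.3, pandas 2.3.3, numpy 2.4.6, scipy 1.17.1, anndata 0.12.19, matplotlib 3.10.9 and Python 3.11.15.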

Additional observations from a re-analysis of the deposited data

How the results depend on the processing

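The count of 0 genes called between genotypes held under every alternative run (0 to 0 with each retina left out), while genes at an unadjusted p under 0.05 ranged from 15 (DESeq2) to 280 (without wt/wt replicate 3) among fits with the filter on low counts, against 51. With batch as a covariate there were 127 by edgeR and 168 by limma-voom. With the replicate number as a replicate block 0 genes were called and 120 had an unadjusted p under 0.05. Deviations of same-numbered retinas correlated at -0.074, 0.315 and 0.493, so the numbers were not taken to pair the retinas.

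The log2 difference of Rlbp1 (0.01) turned to -0.0053 without the filter, to -0.0022 without the astrocyte-like cells and ranged from -0.079 to 0.082 with each retina left out. Aqp4 ranged from -0.025 to 0.22 and Apoe from -0.0069 to 0.13. Of 199 alternative values of the 12 genes with the smallest p, 0 turned in direction. These genes were chosen by p and their groups did not overlap, so this outcome was largely set by that choice. Dapk3 could not be computed without ko/ko replicate 3 nor Ptpn12 without wt/wt replicate 1, because they then failed the filter on low counts. The difference in astrocyte-like share was 0.143 points in the stricter cells, 0.635 with the marker definition, 0.0771 within batch 2, and -1.06 to 1.03 with each retina left out. The difference in glia share (-0.768) was -1.43 in the stricter cells and within batch 1, and ranged from -1.40 to -0.0446 with each retina left out. In the stricter cells the mean glia share was 4.99% in wt/wt and 3.56% in ko/ko retinas, against 2.45% and 1.68% in all typed cells. The -1.43 of the stricter cells thus has another base than -0.768. Sub-clusters numbered 11 at leiden resolution 1 against 5. Genes called between batches ranged from 23 to 1068 with each retina left out against 286, with 357 by limma-voom (266 of them shared). The leading 20 genes kept 18 to 20 members with each retina left out and 16 with 50 CPM added. The cause of these shifts was not tested. In the simulation, at 145343 to 453224 glial UMIs a retina and 3 retinas a genotype, a log2 change of 1 was mostly missed.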
